A study of Mus musculus with 5 samples.

Results

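The surface and enzyme markers of mammary luminal progenitors described here are 8 genes, *Kit*, *Aldh1a3*, *Cd14*, *Prom1*, *Ly6a*, *Ly6d*, *Cd24a* and *Tspan8*. They were chosen by name from the 24319 usable gene rows of an RNA-seq table, and all 8 were found. The table gives FPKM (the fragments of a gene, scaled by library size and by length of the transcript, so that levels can be compared between genes) for 5 libraries of mouse mammary luminal cells, titled Lum1 to Lum5. The labels call Lum1, Lum2 and Lum3 wild type and Lum4 and Lum5 *Brca1* knockout, all of mixed strain, whereas the study's text describes its luminal cells as BRCA1-deficient. In the study's mouse model, Cre recombinase under the MMTV promoter, which is active in mammary epithelium, deletes floxed *Brca1* (*MMTV-Cre; Brca1 fl/fl*, C57BL/6 and 129/Sv background). The alleles carried by each library are not given in the labels. For its cell preparations the study used 3-to-4 month-old females, virgin or in mid pregnancy, after depletion of blood and endothelial cells, and sorted live CD24-high CD29-low cells for bulk RNA. The stage of each library is not given, and no label says whether the libraries came from separate mice, so a p-value measures only the spread between these libraries, which may be technical.

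The luminal layer of the mammary gland holds progenitors, which can form colonies and give rise to milk-secreting alveolar cells, and mature hormone-sensing cells that carry the estrogen and progesterone receptors. KIT is a receptor tyrosine kinase bound by stem cell factor, and together with the lipopolysaccharide co-receptor CD14 and the retinaldehyde dehydrogenase ALDH1A3 it is used to recognise progenitors. SCA-1 (*Ly6a*) and prominin-1 (CD133, *Prom1*) are known in the mouse gland mainly from hormone-sensing luminal cells and from SCA-1-positive progenitors. LY6D is a GPI-anchored protein of the same family as SCA-1, tetraspanin-8 (*Tspan8*) is a membrane protein that organises surface receptors, and CD24 is the GPI-anchored glycoprotein by which luminal cells are sorted.

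The luminal keratin genes *Krt8*, *Krt18* and *Krt19*, with *Epcam* and *Cdh1*, lay between 179.6 and 3653 FPKM in every library, as the label says. *Brca1* was at 1.30, 1.32 and 0.234 FPKM in Lum1, Lum2 and Lum3 and at 1.20 and 1.34 FPKM in Lum4 and Lum5, so the libraries labelled *Brca1* knockout were not the lowest. A value for the whole gene does not show whether an exon was deleted, and the groups are therefore named by their labels only. Lum3 stood apart from the other libraries. Its 10 mature luminal markers summed to 729 FPKM against 88.4 to 187 FPKM elsewhere, and its 10 proliferation genes to 13.3 FPKM against 63.2 to 132 FPKM. Lum2 had the highest macrophage and monocyte markers, which without *Mertk* summed to 163 FPKM against 21.3 FPKM in Lum3 and 3.66 to 5.84 FPKM in the other libraries. The 8 basal markers summed to 7.86 FPKM in Lum3 and to between 40.4 and 132 FPKM elsewhere, where *Krt14* made up most of the sum. *Krt14*, *Acta2* and *Oxtr* were lowest in Lum3, but *Krt5*, *Mylk*, *Cnn1* and *Myh11* were lowest in Lum5 and *Trp63* in Lum2. The 4 adipocyte markers summed to between 2.11 and 36.8 FPKM. Nearly all of this was *Fabp4*, at 2.05 to 36.7 FPKM, and *Adipoq*, *Plin1* and *Cidec* were at most 0.0903 FPKM in any library. Of the 8 alveolar milk genes, 6 were lowest in Lum3, among them the caseins *Csn1s1*, *Csn1s2a* and *Csn2*, and *Lalba* and *Btn1a1* were highest there. Over the 11481 genes that averaged 1 FPKM or more, 51.8% were lowest and 18.5% highest in Lum3. Depth is not recorded in the table. From the spacing of low values it was estimated at about 6350000, 12950000, 29400000, 6400000 and 21300000 fragments in Lum1 to Lum5, so each label holds 1 of the 2 shallowest libraries.

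Averaged over the 5 libraries, *Cd24a* was the most abundant of the 8 genes with 484 ± 56.0 FPKM (SD, n = 5), followed by *Cd14* with 227 ± 134 FPKM and *Kit* with 37.9 ± 8.88 FPKM. *Cd24a* stood first and *Cd14* second in all 5 libraries, and the ranges of *Cd24a*, *Cd14* and *Kit* did not overlap. Below them the order was not stable. *Ly6a* averaged 25.2 ± 21.6 FPKM and *Ly6d* 21.6 ± 15.9 FPKM. *Kit* exceeded *Ly6a* in 3 of 5 libraries, and *Ly6a* exceeded *Ly6d* in 4. *Aldh1a3* averaged 7.80 ± 6.12 FPKM and *Tspan8* 4.02 ± 4.22 FPKM, with overlapping ranges, although *Aldh1a3* was the higher gene in all 5 libraries. *Prom1* has no useful average, since it exceeded *Aldh1a3* only in Lum3. In the ranking of mean log2(FPKM + 1) over the 11481 genes that averaged 1 FPKM or more, *Cd24a* lay above 98.7% and *Cd14* above 97.5% of the genes, while *Tspan8* lay above 22.3% and *Prom1* above 12.3%.

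**Figure D1:**
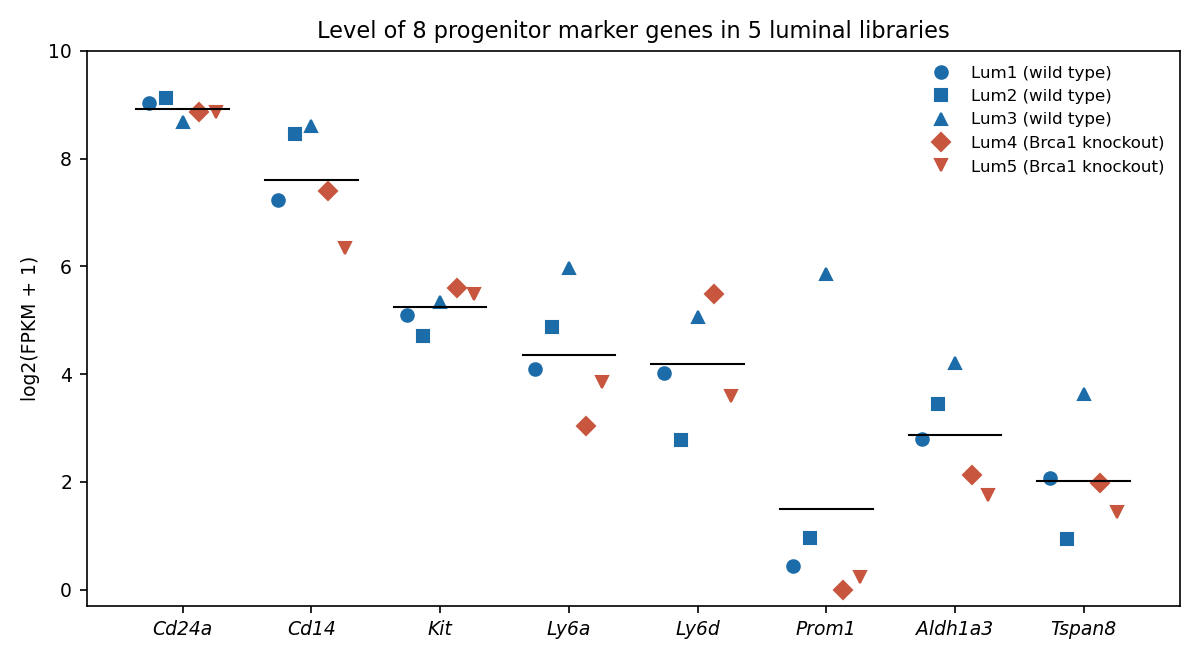
Levels of the 8 marker genes as log2(FPKM + 1), 1 symbol per library, with a line at the mean of the 5 libraries. Lum3 is the highest symbol for *Cd14*, *Ly6a*, *Prom1*, *Aldh1a3* and *Tspan8*, and the 5 symbols of *Cd24a* lie within 1.35-fold of each other on the FPKM scale.

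*Cd24a* (ENSMUSG00000047139, chr10:43578284-43584265, plus strand, mm10) was the steadiest of the 8 genes. It was at 523, 554 and 411 FPKM in Lum1, Lum2 and Lum3 and at 465 and 465 FPKM in Lum4 and Lum5. In FPKM as deposited, the highest library exceeded the lowest by only 1.35-fold, and the values of the libraries labelled *Brca1* knockout fell inside the range of the wild type label. Median-of-ratios scaling divides each library by a size factor, which was 0.837 for Lum3 and 1.01 to 1.06 for the others. So scaled, both libraries labelled *Brca1* knockout lay below all 3 labelled wild type. The cells were sorted as CD24-high, so this gene's product was part of the gate, and the part of the sort in its level was not tested. *Itgb1*, which encodes CD29, the antigen the gate kept low, was at 56.2, 76.9 and 84.0 FPKM in Lum1 to Lum3 and at 55.0 and 64.5 FPKM in Lum4 and Lum5.

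*Kit* (ENSMUSG00000005672, chr5:75574916-75656722, plus strand) had the next narrowest range of the 8 genes, with the highest library 1.89 times the lowest. The SD of its log2(FPKM + 1) was still above that of 61.8% of all genes tested. Its level was 33.4, 25.1 and 39.3 FPKM in Lum1, Lum2 and Lum3 and 47.5 and 44.0 FPKM in Lum4 and Lum5. In FPKM as deposited, both libraries labelled *Brca1* knockout were above all 3 labelled wild type. *Kit* was the only gene of the 8 with that order, which 17.5% of all genes tested had. After median-of-ratios scaling Lum3 was the highest library for *Kit*, so this order was lost. The mean log2(FPKM + 1) differed by 0.50 (SE 0.236, 95% interval -0.10 to 1.09) between the labels, and this did not pass limma's test (adjusted p = 0.924). Without Lum3 the difference was 0.64 (SE 0.182, adjusted p = 0.702). The ligand gene *Kitl*, which encodes stem cell factor, was measured in the same cells at 18.7, 16.4 and 41.3 FPKM in Lum1 to Lum3 and at 31.8 and 17.3 FPKM in Lum4 and Lum5, so its label groups overlapped. Among the 13 other genes of the KIT pathway list, 0 passed the test in either direction. Of these 13, 2 were above all wild type-labelled libraries in Lum4 and Lum5, an order that 17.5% of all genes tested had. They were the kinase gene *Src*, at 32.9 and 41.2 FPKM against 31.2 to 31.4 FPKM, and the exchange factor gene *Sos1*, at 5.72 and 5.61 FPKM against 3.58 to 4.65 FPKM. After median-of-ratios scaling *Src* was higher in Lum3 than in Lum4, so its order was lost as for *Kit*, whereas *Sos1* kept it. Mast cells also carry KIT. Of 5 mast cell markers, all were at 0 in Lum1 and Lum4, 4 in Lum5, 2 in Lum3 and 1 in Lum2, where they summed to 20.2 FPKM. Their part in the *Kit* level was not tested.

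*Cd14* (ENSMUSG00000051439, chr18:36725067-36726798, minus strand) was abundant and uneven. It was at 149, 349.9 and 387 FPKM in Lum1, Lum2 and Lum3 and at 168 and 79.6 FPKM in Lum4 and Lum5. Lum2 and Lum3 were more than 2 times as high as the other libraries, and Lum1 lay between the values of Lum4 and Lum5. The difference between the labels was -1.23 (log2, SE 0.540, interval -2.59 to 0.13, adjusted p = 0.924 by limma), and without Lum3 it was -0.98 (adjusted p = 0.746). CD14 is also carried by macrophages and neutrophils. The 8 macrophage and monocyte markers summed to 23.7, 179, 23.7, 22.3 and 26.2 FPKM in Lum1 to Lum5, with 3 of them at 0 in Lum1 and 2 in Lum4. *Mertk* made up most of the sum in Lum1, Lum4 and Lum5, at 18.7 to 20.4 FPKM, and was lowest in Lum3 at 2.38 FPKM. The other 7 markers summed to 4.16, 163, 21.3, 3.66 and 5.84 FPKM, a sum computed after the values were seen, so Lum2 and Lum3 were the highest libraries for them as for *Cd14*. The 4 neutrophil markers, mostly *S100a8*, summed to 24.8, 155, 44.9, 40.1 and 16.9 FPKM. In Lum1 and Lum4, *Cd14* was at 149 and 168 FPKM, *C1qb* was at 0 and *Csf1r* was at 0.204 and 0.0943 FPKM. Other markers of these lists were present in the same 2 libraries, *Cd68* at 3.49 and 3.31 FPKM and *S100a8* at 24.6 and 39.8 FPKM. The part of these cell types in the *Cd14* differences was not tested. In bulk samples such as these, fewer cells of a type and less RNA per cell cannot be told apart.

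The partners of CD14 in lipopolysaccharide sensing were divided. *Lbp* had Lum3 and Lum2 on top as *Cd14* did, and *Tlr4* and *Tlr2* did not. LBP carries lipopolysaccharide to CD14, and *Lbp* was at 46.6, 58.6 and 87.6 FPKM in Lum1 to Lum3 and at 39.3 and 41.9 FPKM in Lum4 and Lum5, so both libraries labelled *Brca1* knockout were below all labelled wild type. The signalling receptor gene *Tlr4* was at 6.26, 11.3, 3.08, 5.91 and 7.21 FPKM in Lum1 to Lum5 and *Tlr2* at 34.5, 51.8, 9.71, 16.7 and 49.6 FPKM, with Lum3 lowest for both. Its co-receptor gene *Ly96* stayed between 8.73 and 11.9 FPKM and the adaptor gene *Myd88* between 27.8 and 34.9 FPKM. Of the 11 partners, 10 were tested and 0 passed in either direction.

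*Aldh1a3* (ENSMUSG00000015134, chr7:66390890-66427517, minus strand) had the smallest limma p of the 8 genes. Its level was 5.91, 9.88 and 17.4 FPKM in Lum1, Lum2 and Lum3 and 3.39 and 2.39 FPKM in Lum4 and Lum5. Both libraries labelled *Brca1* knockout were below all 3 labelled wild type, an order that 5.77% of all genes tested had. The mean was 11.1 ± 5.86 FPKM (SD, n = 3) against 2.89 ± 0.706 FPKM (SD, n = 2), a ratio of 3.83. On the log2(FPKM + 1) scale the difference was -1.53 (SE 0.440, interval -2.64 to -0.42) with an unadjusted p of 0.0157 from limma, and it was lost on adjustment over all genes (adjusted p = 0.924). Without Lum3 the difference was -1.17 (SE 0.290, adjusted p = 0.699), with the labels still apart.

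ALDH1A3 oxidises retinaldehyde to retinoic acid. It was the main gene of its class here, because *Aldh1a1*, *Aldh1a2* and *Aldh1a7* stayed under 1 FPKM in all 5 libraries. Among the other 18 genes of retinoid handling, 8 were tested and 0 passed in either direction. The retinoic acid receptor gene *Rara* had the library order of *Aldh1a3*, at 23.1 FPKM in Lum3, 5.29 and 5.57 FPKM in Lum1 and Lum2, and 4.82 and 3.73 FPKM in Lum4 and Lum5. *Crabp2*, which carries retinoic acid to its receptor, went the other way, at 17.8 FPKM in Lum3 and between 62.2 and 80.6 FPKM elsewhere.

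*Ly6a* (ENSMUSG00000075602, chr15:74994877-74998031, minus strand) had levels of 16.0, 28.2 and 61.3 FPKM in Lum1, Lum2 and Lum3 and of 7.22 and 13.5 FPKM in Lum4 and Lum5. Lum3 was 2.17 times the next library, and both libraries labelled *Brca1* knockout were below the 3 labelled wild type, although Lum5 and Lum1 were close. The label difference was -1.52 (log2, SE 0.592, interval -3.01 to -0.03) with an unadjusted limma p of 0.0464 and an adjusted p of 0.924. Without Lum3 it was -1.03 (SE 0.398, adjusted p = 0.715). Endothelial cells, lymphocytes and fibroblasts carry SCA-1 too. The 6 endothelial markers summed to 0.700, 7.48, 7.95, 0.519 and 0.174 FPKM in Lum1 to Lum5, with 2 of them at 0 in Lum1, Lum4 and Lum5. The 8 lymphocyte markers summed to 0.942, 6.72, 17.8, 0.472 and 0.645 FPKM, with 4 at 0 in Lum1 and Lum4, 3 in Lum5 and 1 in Lum2. The 6 fibroblast markers, none of them at 0, summed to 3.0, 109, 86.0, 3.86 and 12.6 FPKM. For all 3 lists Lum2 and Lum3 were the highest libraries, as they were for *Ly6a*, *Aldh1a3* and *Cd14*. Their part in the levels of these genes was not tested.

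*Ly6d* (ENSMUSG00000034634, chr15:74762056-74763620, minus strand) lies on the same chromosome as *Ly6a* but did not follow it. It was at 15.2, 5.83 and 32.3 FPKM in Lum1, Lum2 and Lum3 and at 43.8 and 11 FPKM in Lum4 and Lum5. Lum4 was highest and Lum5, with the same label, was next to lowest, and the label difference of 0.59 (SE 0.842, interval -1.53 to 2.71, adjusted p = 0.937) did not pass limma's test. It was 1.14 without Lum3 and 1.54 without Lum5, and it turned to -0.0023 without Lum2 and to -0.36 without Lum4. Of the 18 other Ly6 family genes in the table, 8 were tested, of which 5 were highest in Lum3 and 0 passed between the labels. Over all genes tested, 18.5% were highest in Lum3. *Ly6e* was by far the most abundant, between 559.7 and 865 FPKM. *Ly6c1*, at 13.6 FPKM in Lum3 and between 0.800 and 6.56 FPKM elsewhere, and *Ly6c2*, at 11.7 FPKM against 0.455 to 4.03 FPKM, had Lum3 and Lum2 on top as *Ly6a* did. *Ly6k*, at 1.04, 0.245, 13.8, 5.99 and 0.832 FPKM, and *Lypd3*, at 54.0, 34.0, 136, 67.7 and 32.6 FPKM, had Lum3 and Lum4 on top as *Ly6d* did. No stretch of 50 bases of the longest *Ly6a* or *Ly6d* transcript was found in a transcript of another gene.

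**Figure D2:**
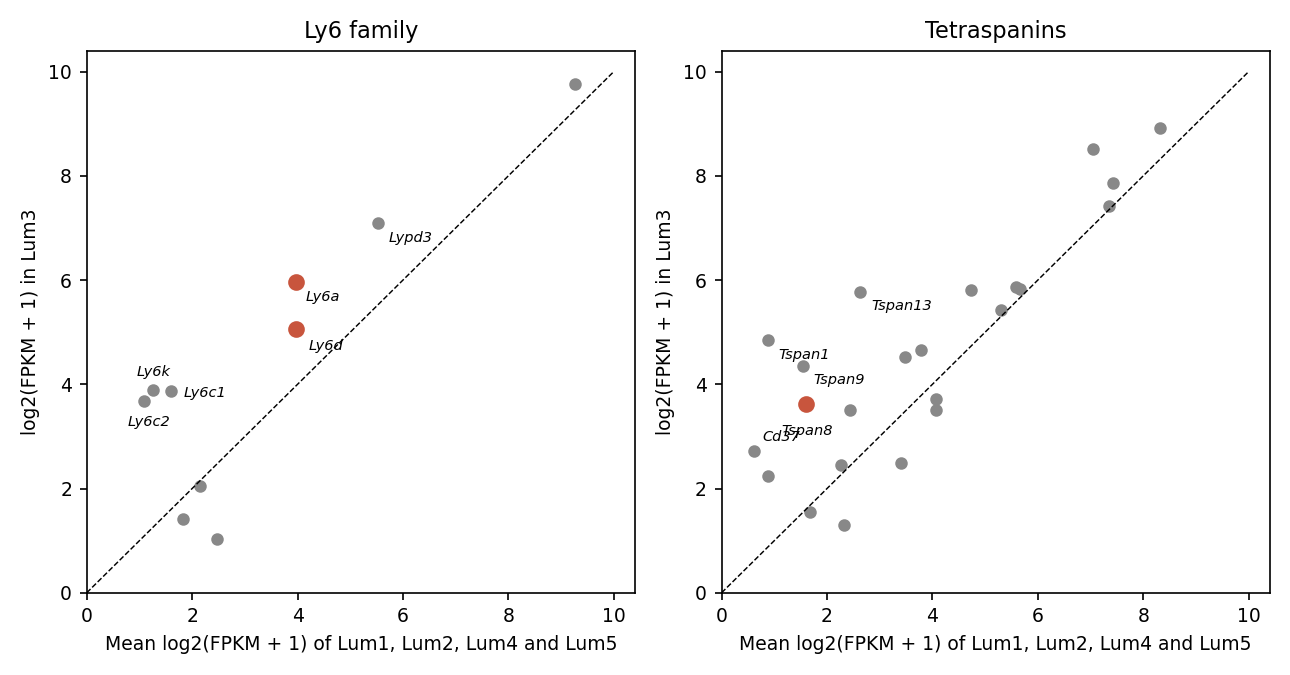
Ly6 family genes (left) and tetraspanin genes (right) that averaged 1 FPKM or more, with the mean log2(FPKM + 1) of Lum1, Lum2, Lum4 and Lum5 on the x axis and the value in Lum3 on the y axis. Points above the dashed line of equal level are higher in Lum3, and the 3 marker genes *Ly6a*, *Ly6d* and *Tspan8*, in red, lie above it.

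*Prom1* (ENSMUSG00000029086, chr5:43993620-44102032, minus strand) was near or under 1 FPKM in all libraries but Lum3. It was at 0.360, 0.938 and 56.7 FPKM in Lum1, Lum2 and Lum3, was listed at 0 in Lum4 and was at 0.177 FPKM in Lum5. Lum3 was 60.4 times the next library, and *Prom1* passed the filter on low values through Lum3 alone. At the estimated depths these levels correspond to about 9.3, 49.7, 6814, 0 and 15.4 fragments, and 3 fragments in Lum4 would have been 0.115 FPKM. The label difference of -2.30 (SE 1.68, interval -6.51 to 1.92, adjusted p = 0.924 by limma) rested on Lum3, and without it the difference was -0.58 (SE 0.338, adjusted p = 0.746). Both labelled knockout libraries were again below the wild type-labelled ones, but at levels under 1 FPKM once Lum3 is set aside. *Prom2*, the other prominin gene, was present everywhere, at 14.1, 7.66 and 53.3 FPKM in Lum1 to Lum3 and at 17.4 and 13.9 FPKM in Lum4 and Lum5, so Lum3 was highest for both prominins. The annotation places the antisense gene *Gm16401* and the same-strand gene *Gm42716* over part of *Prom1*. The library kit the study names does not mark strand, so reads from these genes and from *Prom1* cannot be told apart where they overlap.

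*Tspan8* (ENSMUSG00000034127, chr10:115816832-115849893, plus strand) was the lowest of the 8 genes on average. It was at 3.17, 0.908 and 11.4 FPKM in Lum1, Lum2 and Lum3 and at 2.94 and 1.71 FPKM in Lum4 and Lum5. Lum3 was 3.59 times the next library and the remaining values of the labels overlapped. The difference between the labels was -0.50 (SE 0.792, interval -2.49 to 1.49, adjusted p = 0.942 by limma) and turned to 0.21 (SE 0.457, adjusted p = 0.915) without Lum3. About 16.2 to 50.2 fragments stood behind the values outside Lum3, so counting error alone is large there. An antisense gene, *4930422I22Rik*, overlaps it, with the same limit as for *Prom1*. Of the 28 other tetraspanin genes, 22 were tested and 0 passed between the labels. Lum3 was highest for 13 of the 22, beside 18.5% of all genes tested. *Tspan1* and *Cd37* averaged 0.899 and 0.715 FPKM without Lum3, so they were tested only through Lum3 and their part in that count was fixed by the filter. *Tspan1* was at 27.7 FPKM in Lum3 and between 0.421 and 1.69 FPKM elsewhere, *Tspan13* at 53.8 FPKM against 4.38 to 7.0 FPKM, and *Tspan9* at 19.5 FPKM against 1.51 to 2.22 FPKM. The abundant exosome and membrane organisers *Cd9*, *Cd63* and *Cd81* were also highest in Lum3, at 484, 365 and 230.2 FPKM, but *Cd82* stayed between 153 and 171 FPKM.

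Promoter windows were at hand in the RefSeq table (GRCm38.p6) for *Kit*, *Prom1* and *Tspan8*, 3 of the 8 genes. They are shown because, in FPKM as deposited, *Prom1* and *Tspan8* were highest in Lum3 while *Kit* was not. Each is the stretch before an annotated start that holds no annotated exon, on the strand of the gene. The *Kit* stretch is chr5:75574737-75574915 (plus), the *Prom1* stretch chr5:44094769-44095018 (minus), before a start inside the gene, where transcripts that begin upstream have an intron, and the *Tspan8* stretch chr10:115817034-115817270 (plus). Capitals mark AGGAAG, the core bound by ETS factors, or its reverse complement CTTCCT.
Kit: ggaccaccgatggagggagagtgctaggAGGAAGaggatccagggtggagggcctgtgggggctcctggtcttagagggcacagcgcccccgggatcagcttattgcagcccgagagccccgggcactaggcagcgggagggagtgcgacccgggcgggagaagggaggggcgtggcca
Prom1: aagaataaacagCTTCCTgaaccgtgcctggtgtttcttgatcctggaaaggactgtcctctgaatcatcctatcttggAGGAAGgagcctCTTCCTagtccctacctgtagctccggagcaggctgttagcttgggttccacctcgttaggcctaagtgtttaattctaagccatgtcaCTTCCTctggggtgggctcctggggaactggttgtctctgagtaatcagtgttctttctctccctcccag
Tspan8: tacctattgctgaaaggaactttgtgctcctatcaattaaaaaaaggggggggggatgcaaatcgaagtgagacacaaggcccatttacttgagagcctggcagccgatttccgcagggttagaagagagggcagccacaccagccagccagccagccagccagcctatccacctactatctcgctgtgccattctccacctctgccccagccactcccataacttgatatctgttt
Over the 250 bases before the start, the *Kit* window had 70.8% G and C and 17 CpG dinucleotides, whereas the *Prom1* window had 50.8% and 3, and the *Tspan8* window 52.4% and 4, beside medians of 52.4% and 6 over all 32851 windows. AGGAAG matched 1 time in the *Kit* window, at -222, and 4 times in the *Prom1* window, at -238, -171, -159 and -70, and 0 times in the *Tspan8* window. A second *Prom1* window, before an upstream start and not shown because annotated exons cover it, had 0 matches. At least 1 match was present in 29.5% of all windows. The STAT motif TTCNNNGAA, the GATA motif AGATAA and the TATA box TATAAA, searched on both strands, had 0 matches in any of these windows and were in 7.02%, 9.99% and 12.4% of all windows. A match of letters is no evidence of binding, and its absence says only that these letters are not in the window.

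Between the labels, 0 of the 8 genes passed the test, and 0 of all 11481 genes tested did (0%, limma, Benjamini-Hochberg adjusted p under 0.05). At an unadjusted p under 0.05 there were 372 genes over the whole table, *Aldh1a3* and *Ly6a* among them, and eBayes without a trend or with robust fitting also called 0. In FPKM as deposited, both libraries labelled *Brca1* knockout lay below all 3 labelled wild type for 3 of the 8 genes (*Aldh1a3*, *Prom1* and *Ly6a*) beside 5.77% of all genes, and above them for 1 (*Kit*) beside 17.5%. *Prom1* was tested only because its Lum3 value, under the wild type label, carried it past the filter, so its direction was set by that choice, and among the other 7 genes the count below was 2. The exact two-sided permutation test gave p = 0.2 for each of these 4 genes, the smallest value that 3 libraries against 2 allow, p = 0.4 for *Cd14* and p = 0.8 for *Ly6d*, *Cd24a* and *Tspan8*. The median of the 8 label differences was -0.87, and that of all genes tested 0.11. The median of the 8 was -0.40 without Lum3 and -0.46 without Lum5, and it was -0.50 over the 7 genes other than *Prom1*. The mean was lower under the *Brca1* knockout label for 6 of the 8 genes, beside 34.5% of all genes, and 2 of the 6 differences, those of *Cd24a* and *Tspan8*, changed sign under an alternative. Without Lum3, the libraries labelled knockout were below both others for 4 genes (*Aldh1a3*, *Prom1*, *Ly6a* and *Cd24a*), an order that 15.6% of all genes then had, and above them for *Kit*, as for 23.5% of all genes. With all 5 libraries and median-of-ratios scaling, *Cd24a* also lay below and *Kit* did not lie above, so the counts over 5 libraries rest on the scaling. The shares of all genes were not recounted under it.

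**Figure D3:**
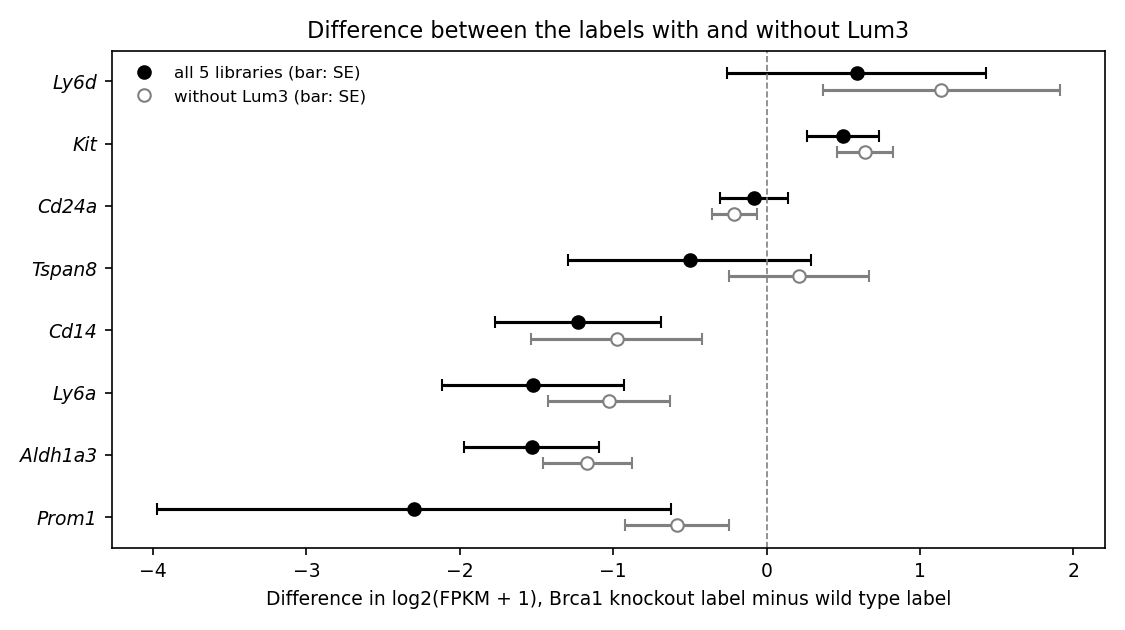
Difference in mean log2(FPKM + 1) between the labels, *Brca1* knockout minus wild type, for each marker gene with its standard error from limma, with all 5 libraries (black) and without Lum3 (grey). *Aldh1a3* and *Ly6a* stay below 0 in both, *Kit* stays above 0, *Prom1* shrinks from -2.30 to -0.58 and *Tspan8* changes sign.

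In FPKM as deposited, for every gene of the 8 but *Kit*, Lum3 differed from the mean of the other 4 libraries by more, on the log2 scale, than the labels differed from each other. Lum3 was then highest for 5 of the 8 (*Aldh1a3*, *Cd14*, *Prom1*, *Ly6a* and *Tspan8*) and lowest for 1 (*Cd24a*), whereas over all genes tested it was highest for 18.5% and lowest for 51.8%. After median-of-ratios scaling Lum3 was also highest for *Kit* and no longer lowest for *Cd24a*. The shares and medians of Lum3 over all genes were not recomputed under that scaling. The median of Lum3 minus the mean of the others was 1.46 for the 8 genes and -0.27 for all genes tested (log2). *Prom1* was tested only through its Lum3 level, so its part in the count of 5 and in this median was fixed by the filter. *Prom1* had Lum3 apart from the rest by Dixon's ratio (0.837 against a critical value of 0.71 for 5 values), which follows from its passing the filter through Lum3 alone, and 13% of all genes tested had a library apart. Seen over all 5 libraries, the SD of log2(FPKM + 1) was 0.17 for *Cd24a* and 0.35 for *Kit*, and between 0.94 and 2.46 for the other 6 genes, beside a median of 0.30 over all genes. Without Lum3 it stayed above that of 91.1% to 97.2% of all genes for *Aldh1a3*, *Cd14*, *Ly6a*, *Ly6d* and *Tspan8*, so these genes varied between the other libraries too. For *Kit* and *Prom1* it was then above that of 85.3% and 85.4% of all genes, and for *Cd24a* above that of 21.5%.

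Other genes of the progenitor list were divided in Lum3. Of 11, 7 were highest and 3 lowest there, and 0 passed between the labels. The integrin gene *Itgb3* (CD61), a further progenitor surface marker, was at 34.9 FPKM in Lum3 and between 0.596 and 1.72 FPKM elsewhere, and lactotransferrin *Ltf* was at 825 FPKM against 21.2 to 203 FPKM. *Mfge8*, which encodes a milk fat globule protein, was at 2195 FPKM against 506 to 638 FPKM. The alveolar regulators went the other way. *Elf5* was at 102 FPKM in Lum3 and between 244 and 338 FPKM elsewhere, and its relative *Ehf* at 20.3 FPKM against 58.7 to 95.9 FPKM. Among 10 hormone-sensing mature luminal genes, 9 were highest in Lum3. *Pgr* among these and *Itgb3* among the 7 above averaged 0.390 and 0.930 FPKM without Lum3. They were tested only through Lum3, so the filter fixed their part in these counts. *Prlr*, the prolactin receptor gene, was at 148 FPKM there and between 5.61 and 10.3 FPKM elsewhere, *Pgr*, the progesterone receptor gene, at 27.1 FPKM against 0.111 to 0.714 FPKM, and *Foxa1* at 33.6 FPKM against 0.896 to 2.01 FPKM. The part of hormone-sensing cells in the Lum3 levels of *Prom1*, *Ly6a*, *Tspan8*, *Aldh1a3* and *Cd14* was not tested.

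**Figure D4:**
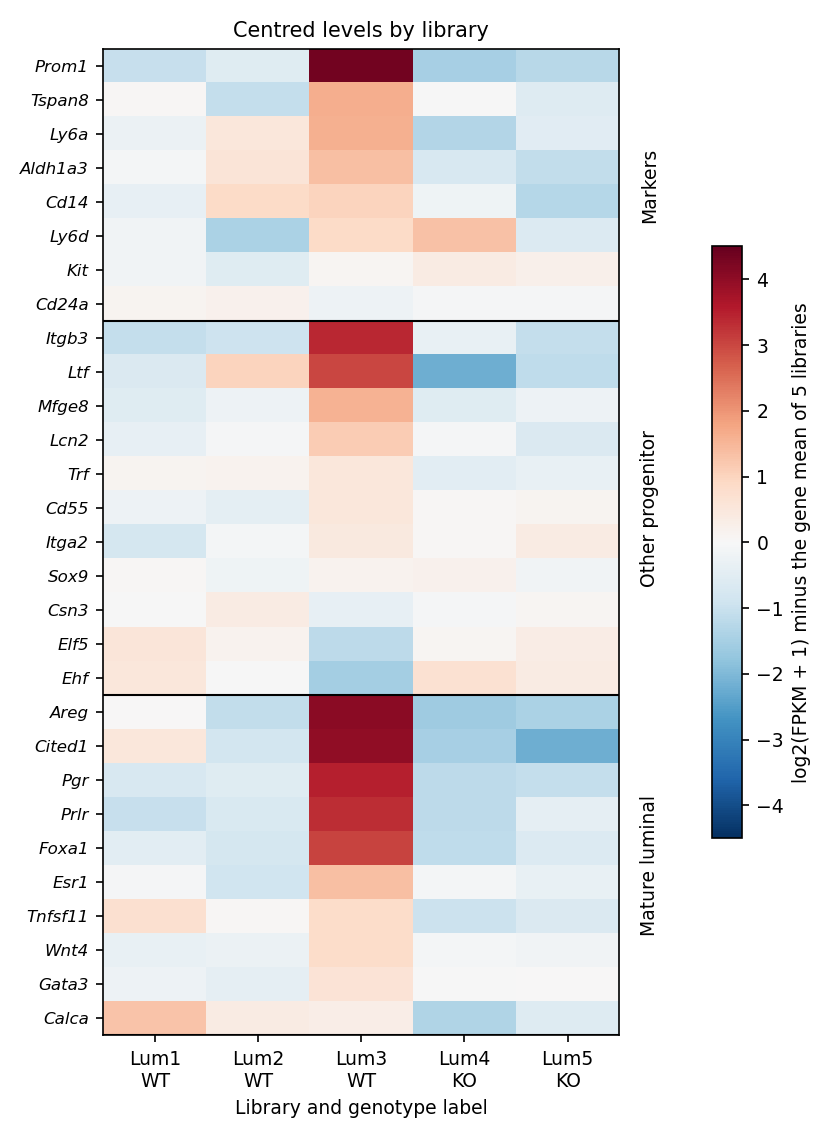
Log2(FPKM + 1) of each gene minus its mean over the 5 libraries, for the 8 marker genes, 11 other progenitor genes and 10 mature luminal genes, with red above and blue below the mean. Lum3 is red for *Prom1*, *Itgb3*, *Ltf* and most mature luminal genes, near white for *Kit* and *Cd24a*, and blue for *Elf5* and *Ehf*.

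Within the 8 genes, similarity of profile was measured as the root mean square difference of log2(FPKM + 1), each gene centred on its mean over the 5 libraries. *Aldh1a3* and *Cd14* were closest at 0.34, followed by *Aldh1a3* and *Ly6a* at 0.40 and *Kit* and *Cd24a* at 0.44, while *Prom1* was at least 1.41 from every other member. *Kit* and *Cd24a* had the smallest SDs of the 8, which keeps this measure low for them. Their profiles did not run together, since *Kit* was lowest in Lum2, where *Cd24a* was highest. Over all genes tested, the profile nearest to *Kit* was that of *Tet2* (0.066), with 4.45, 3.40, 5.99, 6.48 and 6.03 FPKM in Lum1 to Lum5. For *Aldh1a3* it was *Ggta1* (0.13), for *Cd14* *Plvap* (0.16), for *Ly6a* *Tmem159* (0.18) and for *Ly6d* *Pdlim3* (0.16). *Slc7a2* was nearest to *Prom1* (0.069), with 78.5 FPKM in Lum3 and between 0.362 and 1.42 FPKM elsewhere, and the next was *Wfdc2* (0.15), with 245 FPKM against 4.12 to 7.15 FPKM. *Garnl3* (0.18) and the estrogen receptor gene *Esr1* (0.18) were nearest to *Tspan8*, *Esr1* at 3.0, 1.22, 9.57, 2.83 and 2.25 FPKM. *Imp3* was nearest to *Cd24a* (0.017), as is easily found for a gene that varies little. With 5 libraries such likeness is a description only.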

How the data were processed

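RNA of sorted luminal cells was sequenced from paired-end libraries. Per the labels, the authors trimmed reads with Trimmomatic 0.35, aligned them to mm10 with TopHat2 2.0.13 and quantified genes as FPKM with Cufflinks 2.2.1, against an annotation that is not given in the sources used here. The deposited FPKM table had 24346 rows, of which 27 carried a gene name turned into a date and were left out. It holds no counts. Only 54.5% to 60.2% of low values lay within 0.15 of a whole number of fragments, where 30% would by chance, so no count test was run and depths are approximate. The depth estimate used 88 to 138 low genes per library.

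Tests used log2(FPKM + 1), and differences on this scale are too small for low genes. Libraries were grouped by genotype label. The 11481 genes that averaged 1 FPKM or more were compared with limma 3.58.1 (lmFit, eBayes with a trend) in R 4.3.3 and adjusted by the Benjamini-Hochberg method at 0.05. Single genes were compared by an exact two-sided permutation test. The fit was tested on simulated data. The alternatives were a pseudocount of 0.1, median-of-ratios and quantile scaling, other filters, other eBayes settings and each library left out. Intervals cover the spread between libraries. The 8 genes, the pathway and marker lists and the tests were chosen with earlier results of these data known. Beside the 8 genes, those named are the relatives in the same pathway or family, the progenitor and mature luminal lists, the markers of other cell types, and the profiles nearest to each gene. Of 22 Ly6 family genes listed, 20 were matched by name. Coordinates and transcripts are those of GENCODE M21 (GRCm38, that is mm10). The other steps ran in Python 3.11.15 with scipy 1.17.1, pandas 2.3.3 and numpy 2.4.6.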

Additional observations from a re-analysis of the deposited data

Results flagged for a closer look

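Of the 8 genes, *Prom1* was set off by a library far from the rest. It was at 56.7 FPKM in Lum3 and at most 0.938 FPKM in the other libraries, and on the log2(FPKM + 1) scale the gap to the next library was 0.837 of the whole range (Dixon's critical value 0.71 for 5 values). Chance sets off about 1 in 20 such groups, and 13% of all genes tested had a library this far apart. *Prom1* was among the genes tested only through its level in Lum3.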

How the results depend on the processing

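With each library left out in turn, between 0 and 14 genes over the whole table passed the threshold (2 without Lum1, 14 without Lum4 and 4 without Lum5). None of the 8 marker genes passed under any of the 12 alternatives, and their lowest adjusted p was 0.48. The median label difference of the 8 genes lay between -1.12 and -0.40 with a library left out, against -0.87, and was -0.50 under the filter of at least 1 FPKM in at least 2 libraries, which drops *Prom1*. Median-of-ratios scaling moved the median of all genes from 0.11 to -0.0088. It also changed the library orders of *Kit* and *Cd24a*, because the size factor was 0.837 for Lum3 and 1.01 to 1.06 for the others. Of 95 recomputed differences of single genes, 5 had the opposite sign. *Ly6d* was at -0.0023 without Lum2 and -0.36 without Lum4, and reached 1.54 without Lum5. *Cd24a* was at 0.042 under quantile scaling and 0.0058 without Lum2, and lowest at -0.215 under median-of-ratios scaling and -0.210 without Lum3. *Tspan8* was at 0.21 without Lum3 and as low as -1.14 without Lum2. The cause was not tested, beyond the library left out. *Kit* stayed between 0.33 and 0.64, *Aldh1a3* between -1.88 and -1.17, *Cd14* between -1.76 and -0.70, *Ly6a* between -1.97 and -1.03 and *Prom1* between -4.17 and -0.58. No paired analysis was possible because the labels share no replicate number. Depth limits *Tspan8* and *Prom1* most, with as few as 0 to 50.2 estimated fragments outside Lum3.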
